A study of Rattus norvegicus with 20 samples.

Results

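The comparison described here set kidneys of rats labelled RM-HS against kidneys of rats labelled HS, to show what the first injury adds to the second in a rat model of trauma-induced acute kidney injury. The libraries were chosen by their disease label alone, and 8 of the 20 libraries of the series enter the comparison: 3 of RM-HS and 5 of HS. The labels give the groups as RM, HS, RM-HS and Sham, and from knowledge of the study RM stands for rhabdomyolysis and HS for haemorrhagic shock. The HS group is thus the control, and both groups carry HS. The sources used here give no strain, age, dose of injury or time of sampling for any group. The 6 RM and 6 Sham libraries were used as a second pair in which the same injury was added without HS. Each library is mRNA of whole frozen kidney. The labels do not state whether the libraries of a group came from different animals. If they did not, the spread behind every p-value here is technical. In bulk tissue, fewer cells of a type and less RNA per cell cannot be told apart.

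Values are normalized read counts per gene. RM-HS libraries held 66.4 to 84.0 M reads and HS libraries 48.8 to 109.9 M, of which mitochondrial genes took 44.8 to 49.6% and 42.2 to 54.7%. Kidney identity was clear in all 8 libraries: the 12 early proximal tubule markers summed to 413070 to 674000 normalized counts in RM-HS and 410060 to 527070 in HS, and no marker was at 0 in all 8. Library names start with R or S, with no further meaning given. All 3 RM-HS libraries start with R, against 3 of 5 HS, 1 of 6 RM and 6 of 6 Sham, so counts of lists and the genes that lead the account are also given among libraries named R, which leaves 3 against 3. The Sham libraries were split: Slc5a2, a glucose carrier of the early proximal tubule, measured 6791 in Sham 1 and 7863 in Sham 6 but 48.2, 396, 180 and 43.1 in Sham 2 to 5. Counts of rows passing in RM against Sham and in the departure from additivity are therefore also given with Sham 1 and Sham 6 as the only Sham libraries. That choice was known from earlier results of these data. List counts and gene differences against Sham used all 6 Sham libraries unless stated otherwise. Correlations of log2 values were 0.956 to 0.960 within RM-HS, 0.950 to 0.967 within HS and 0.935 to 0.953 between them.

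As background, rhabdomyolysis is the breakdown of skeletal muscle, which releases myoglobin into the blood. The kidney filters myoglobin, proximal tubule cells take it up, and heme oxygenase 1 opens its haem ring and frees iron, which ferritin stores. BACH1, a haem-binding repressor, and NRF2, an activator freed from KEAP1 by electrophiles, act on many of the same antioxidant genes, among them the cystine importer Slc7a11. The integrated stress response is a second route to some of these genes: its kinases slow translation while the transcription factor ATF4 is made. Haemorrhagic shock starves the whole kidney of blood flow and oxygen.

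Of 15954 rows tested, 3287 (20.6%) differed between RM-HS and HS at an adjusted p under 0.05 in limma, with 1599 higher in RM-HS (10%) and 1688 lower (10.6%). At least a 2-fold change was seen in 435 of those higher and 444 of those lower. The 3 RM-HS and 5 HS libraries did not overlap in 3980 rows (24.9%), of which 2771 were among the called. The largest rises and falls described below were picked from called rows without overlap, so their separation was a condition of the choice. Among libraries named R, 1203 rows passed, 524 higher and 679 lower, and 1180 of them were shared with the pooled calls in direction. All 3287 called rows had the same sign there. Without RM-HS 3 the count was 2015. The median log2 difference over all tested rows was 0.01. Genes called higher were shorter than those called lower, with a median gene span of 13.6 kb against 28.1 kb and 22.4 kb over all tested genes with a symbol, and had a higher median level (1945 against 607 normalized counts, and 641 over all). The part of gene length or level in these calls was not tested.

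Of the haem and iron genes, Hmox1 had the largest difference. Hmox1 (chromosome 19, 14508634 to 14515453, rn6) encodes heme oxygenase 1. Its normalized counts were 105490, 132570 and 38141 in RM-HS and 2468, 36015, 4966, 3156 and 4316 in HS. The RM-HS libraries all stood above the HS libraries, but HS 2 was far above the other HS libraries and close to RM-HS 3 (log2 difference 3.83 ± 0.91 SE, adjusted p = 0.0063). In the other groups Hmox1 ran from 109350 to 172380 in RM (median 164610) and 400.1 to 12908 in Sham (median 448). Among libraries named R, where HS 2 is 1 of 3 controls, the log2 difference was 3.41 with an adjusted p of 0.11. Bach1, the haem-sensed repressor of Hmox1, measured 7680.5, 5785 and 3789.6 in RM-HS and 2110.4, 3443, 3031, 2588 and 2477 in HS (log2 difference 1.04 ± 0.20 SE, adjusted p = 0.0014, and 0.024 among libraries named R). Again no HS library reached the lowest of RM-HS. The ferritin light chain Ftl1 measured 584160, 568190 and 455950 in RM-HS and 258860, 304710, 385470, 269760 and 297270 in HS (log2 difference 0.83 ± 0.20 SE, adjusted p = 0.0077). Every RM-HS library was higher, while among libraries named R its adjusted p was 0.1. The ferritin heavy chain Fth1 had a log2 difference of 0.77 (adjusted p = 0.033, 0.28 among libraries named R). Its call ended without HS 4 (adjusted p = 0.067), without HS 5 (adjusted p = 0.07), without RM-HS 1 (adjusted p = 0.08) and without RM-HS 2 (adjusted p = 0.14).

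Of 26 haem and iron genes tested, 6 were higher in RM-HS and 2 lower, against 10% and 10.6% of all rows, and the median log2 difference was 0.21. These shares of all rows are the background for every list count of RM-HS against HS that follows. Beside those above, the risers were Slc48a1 (0.52), a haem importer of endosomes, and Hp (1.91), haptoglobin, which binds free haemoglobin. The call of Slc48a1 ended without HS 4 (adjusted p = 0.053) and without RM-HS 2 (adjusted p = 0.17). That of Hp ended without HS 2 (adjusted p = 0.058), without HS 5 (adjusted p = 0.065), without RM-HS 1 (adjusted p = 0.078) and without RM-HS 3 (adjusted p = 0.12). The genes that fell were Ireb2 (-0.64), an iron-sensing regulator of translation, and Alas1 (-0.55), the first enzyme of haem synthesis, which lost its call without RM-HS 2 (adjusted p = 0.068). Without RM-HS 2, 1 gene was lower. Members that did not pass included the iron exporter Slc40a1 (-0.14, adjusted p = 0.82), the transferrin receptor Tfrc (-0.62, 0.072), biliverdin reductase Blvrb (0.27, 0.11) and hemopexin Hpx (0.10, 0.94). With libraries named R alone, 1 member was higher (Bach1) and 1 lower (Alas1). Hephl1, a copper ferroxidase related to hephaestin, was outside the list and measured 62.1, 219.9 and 51.3 in RM-HS and 2.49, 17, 21.6, 35.3 and 0 in HS. All RM-HS libraries exceeded all HS libraries (log2 difference 3.36 ± 0.97 SE, adjusted p = 0.019, and 0.061 among libraries named R), and the call ended without RM-HS 2 (adjusted p = 0.1).

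Of 27 NRF2 targets tested, 8 were higher and 1 lower, against 10% and 10.6% of all rows, with a median log2 difference of 0.39. Among libraries named R, 3 were higher (Srxn1, Osgin1 and Fbxo30). The count was 5 higher without RM-HS 1 and 5 higher without RM-HS 2. Srxn1, which encodes sulfiredoxin, the enzyme that repairs overoxidized peroxiredoxins, measured 19066, 16528 and 5719 in RM-HS and 2326, 3947, 4462, 3144 and 2946 in HS. RM-HS 3 was the lowest of its group and still above every HS library (log2 difference 1.89 ± 0.35 SE, adjusted p = 0.0011). Osgin1, an oxidative stress induced growth inhibitor, had a log2 difference of 1.42 (adjusted p = 0.0015). Nfe2l2, the gene of NRF2 itself, was higher by 0.51 (adjusted p = 0.003, 0.053 among libraries named R). Txnrd1, thioredoxin reductase, differed by 0.87 (adjusted p = 0.013) and lost its call without RM-HS 1 (adjusted p = 0.071) and without RM-HS 2 (adjusted p = 0.058). Prdx1, a peroxiredoxin, differed by 0.50 (adjusted p = 0.018) and lost its call without RM-HS 1 (adjusted p = 0.09) and without RM-HS 2 (adjusted p = 0.058). Members that did not pass included some of the best known targets, Nqo1 (1.15, adjusted p = 0.054), Gclm (0.08, 0.81) and Gclc (-0.23, 0.38). The 1 member that fell was the efflux pump Abcc4 (-0.85, 0.027), whose call ended without HS 2 (adjusted p = 0.065), without RM-HS 2 (adjusted p = 0.084) and without RM-HS 3 (adjusted p = 0.083).

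Promoter windows of risers from this group are shown because NRF2 and AP-1 factors are known to bind the short elements in capitals. The letters searched on both strands in the 250 bases before each start were TGANTCA (AP-1 site) and TGACNNNGC (core of the antioxidant response element), which can overlap each other. They were found in 6.34% and 10.1% of all 33469 RefSeq promoters and in 2 each of the 8 promoters of the 7 risers that had one in the table. The antioxidant core was not particular to this list. It was in 2 of 10 promoters of integrated stress response genes and 2 of 9 of immediate early genes higher in RM-HS. The AP-1 site was in 1 of those 10 and 0 of those 9. The sequences are from RefSeq (GRCr8), in the orientation of the gene, and a match is a description of letters only.
Srxn1, AP-1 site (chr3:161064730-161064776, plus strand): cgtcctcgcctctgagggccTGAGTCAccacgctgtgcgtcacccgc
Prdx1, antioxidant response element core overlapping an AP-1 site (chr5:135383751-135383799, plus strand): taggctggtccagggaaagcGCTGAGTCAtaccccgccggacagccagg
Txnrd1, antioxidant response element core (chr7:22755954-22756002, minus strand): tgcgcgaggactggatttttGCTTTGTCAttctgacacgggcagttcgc
The capitals mark the match; in Prdx1 and Txnrd1 it lies on the opposite strand and is printed as read along the gene.

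Among genes of cystine and glutathione, Slc7a11 had the largest difference. Slc7a11 (chromosome 2, 139453774 to 139528162, rn6), the cystine-glutamate antiporter, measured 2006, 2131 and 899 in RM-HS and 49, 166, 85.7, 29.4 and 28.8 in HS. The lowest RM-HS library was more than 5 times the highest HS library (log2 difference 4.76 ± 0.78 SE, adjusted p = 0.00041, and 0.0071 among libraries named R). In the other groups it ran from 651 to 9529 in RM (median 6086) and 3.8 to 37.7 in Sham (median 17.1). Chac1, which degrades glutathione, measured 959, 1605 and 249 in RM-HS and 59, 66.9, 198, 119 and 48 in HS. RM-HS 3 lay near HS 3 and the other 2 RM-HS libraries well above (log2 difference 3.08 ± 0.71 SE, adjusted p = 0.005, and 0.026 among libraries named R). Cbs, which makes cystathionine on the path from homocysteine to cysteine, was higher by 0.88 (adjusted p = 0.0003). Of 19 cystine and glutathione genes tested, 5 were higher and 1 lower, against 10% and 10.6% of all rows, with a median of 0.39. Among libraries named R 3 were higher, and 3 were higher without RM-HS 1. The other risers were glutathione reductase Gsr (0.39) and the peroxidase Gpx1 (0.51), and the kidney cystine transporter Slc7a9 fell (-0.81). Gsr lost its call without RM-HS 1 (adjusted p = 0.063), Gpx1 without RM-HS 1 (adjusted p = 0.073) and without RM-HS 3 (adjusted p = 0.1), and Slc7a9 without HS 4 (adjusted p = 0.052), without HS 5 (adjusted p = 0.059), without RM-HS 1 (adjusted p = 0.063) and without RM-HS 2 (adjusted p = 0.14). The peroxidase Gpx4 (0.30, adjusted p = 0.17) and glutathione synthetase Gss (0.25, 0.27) did not pass.

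The integrated stress response was higher across much of its list: 11 of 22 tested genes were higher in RM-HS and 0 lower, with a median log2 difference of 1.08, and 8 were higher among libraries named R. The list shares Slc7a11 and Chac1 with the one above. Atf3 (chromosome 13, 109817895 to 109849639, rn6), a transcription factor induced by stress, measured 17902, 16859 and 11091 in RM-HS and 877, 1981, 2282, 2679.5 and 799 in HS. The lowest RM-HS library was over 4 times the highest HS library (log2 difference 3.29 ± 0.39 SE, adjusted p = 3.4e-05, and 0.0011 among libraries named R). Atf4, the factor at the centre of the response, was higher by 1.24 (adjusted p = 0.00018). Ppp1r15a, which restores translation by dephosphorylating eIF2 alpha, measured 5438, 6004 and 4127 in RM-HS and 952, 1296, 1668, 1632 and 868 in HS, with no overlap (log2 difference 2.05 ± 0.27 SE, adjusted p = 8.6e-05). Slc7a5, a carrier of large neutral amino acids, measured 1075, 1305 and 1045 in RM-HS and 137, 187, 378, 166 and 163 in HS (log2 difference 2.55 ± 0.30 SE, adjusted p = 3.4e-05). Again no HS library reached the RM-HS range, and both genes passed among libraries named R (0.0025 and 0.0026). The unfolded protein response of the endoplasmic reticulum was counted in another list, which holds none of the risers above. That list had 0 of 19 tested genes higher and 2 lower, with a median of -0.26 and 0 passing among libraries named R. These counts describe the genes of that list only. Of 16 heat shock genes 1 was higher, and 0 among libraries named R.

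Promoter windows that hold the element of ATF4 (composite element, letters TGATGNAAN) or the cyclic AMP response element (TGACGTCA) are shown for members of this list. Both strands of 250 bases before the start were searched, and the 2 motifs held in 3.38% and 1.59% of all 33469 promoters were found in 2 and 1 of the 10 risers with a promoter in the table. The cyclic AMP response element was also in 3 of 9 promoters of immediate early genes higher in RM-HS. Trib3, a pseudokinase, is named here for its sequence (log2 difference 2.46, adjusted p = 0.0016).
Chac1, composite element (chr3:126795943-126795991, plus strand): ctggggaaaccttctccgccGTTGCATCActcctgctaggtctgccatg
Trib3, composite element (chr3:161275534-161275575, minus strand): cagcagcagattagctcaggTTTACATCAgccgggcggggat
Ppp1r15a, cyclic AMP response element (chr1:105139635-105139682, minus strand): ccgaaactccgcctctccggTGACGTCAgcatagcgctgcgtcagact
The sequences are from RefSeq (GRCr8) along the gene, with the match in capitals. In Chac1 and Trib3 the match lies on the opposite strand.

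**Figure D1:**
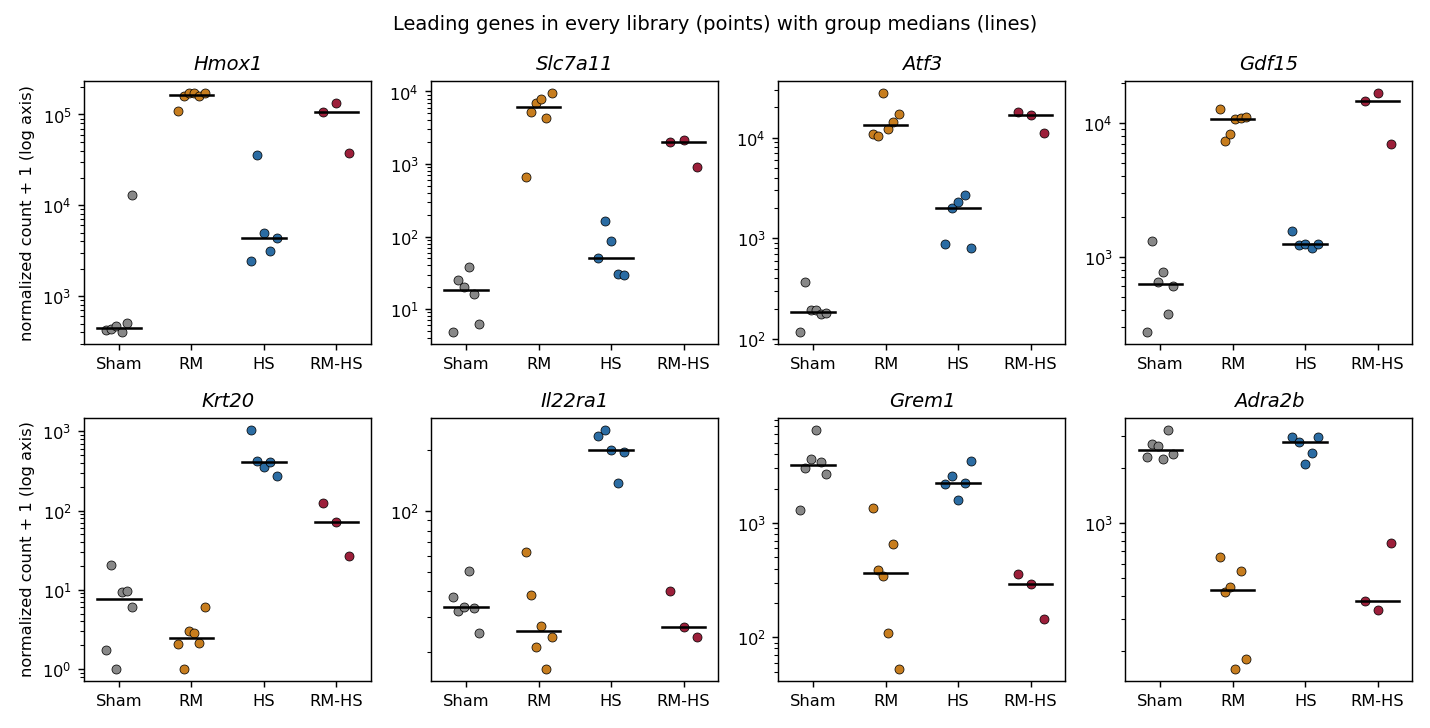
Normalized count + 1 on a log axis in each of the 20 libraries (points) for 8 genes, with the group median as a line. Hmox1, Slc7a11, Atf3 and Gdf15 were higher in all 3 RM-HS libraries than in all 5 HS libraries, and Krt20, Il22ra1, Grem1 and Adra2b lower. All 8 were among the largest rises and falls, which were named only where the groups did not overlap.

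Immediate early genes, transcription factors induced within minutes of a stimulus, were higher in 14 of 21 tested members and lower in 0, with a median log2 difference of 1.54, and 12 were higher among libraries named R. Jun, a subunit of AP-1, measured 60387, 56794 and 51622 in RM-HS and 14239, 18833, 24884, 22323 and 14419 in HS (log2 difference 1.60 ± 0.22 SE, adjusted p = 9.1e-05). The groups did not overlap, as was also true of Myc (1.66, adjusted p = 0.00031) and the zinc finger factor Klf6 (1.86, 0.00024). All 3 passed among libraries named R, with adjusted p of 0.0021, 0.015 and 0.0012. Feedback inhibitors of MAP kinase signalling were higher in 9 of 14 and lower in 0 (median 0.87, 5 among libraries named R, and 5 without RM-HS 2). The phosphatase Dusp8 measured 1899, 1489.6 and 1592 in RM-HS and 442, 506, 599.8, 738 and 479 in HS (log2 difference 1.60 ± 0.21 SE, adjusted p = 6.2e-05). RM-HS was higher in every library, and the phosphatases Dusp5 (1.45, 0.0004) and Dusp1 (1.55, 0.0037) and the feedback gene Phlda1 (1.96, 0.0004) passed too.

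Upstream of that pathway, the 9 EGF receptor ligands and receptors split. Hbegf, a ligand made as a membrane-anchored precursor, measured 3078, 2569.6 and 1583 in RM-HS and 534, 477, 619.6, 469 and 536 in HS (log2 difference 2.14 ± 0.32 SE, adjusted p = 0.00022). Btc, another ligand, went the other way at 73, 29.1 and 24.2 in RM-HS and 91.4, 144, 94.7, 267 and 110.5 in HS (log2 difference -1.77 ± 0.36 SE, adjusted p = 0.0023). Each gene separated the groups without overlap, and each passed among libraries named R (0.0095 and 0.03). The receptors Erbb2 (-0.95, adjusted p = 0.00074) and Erbb3 (-0.75, 0.0089) fell as well; Erbb3 lost its call without RM-HS 2 (adjusted p = 0.056). In all, 2 rose and 3 fell, and 1 rose without RM-HS 1 or without RM-HS 2.

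Of 15 p53 targets tested, 6 were higher and 1 lower (median 0.28), against 10% and 10.6% of all rows. Among libraries named R 3 were higher and 1 lower. The number higher was 3 without each of HS 1, HS 2, RM-HS 1, RM-HS 2 and HS 4. Gadd45a, a growth arrest gene, measured 63551, 60652 and 47452 in RM-HS and 13691, 9834, 17971, 13261 and 10665 in HS (log2 difference 2.15 ± 0.17 SE, adjusted p = 4.8e-07). Its lowest RM-HS value was more than 2 times its highest HS value, and it ran from 36024 to 57867 in RM (median 45780) and 9326 to 12234 in Sham (median 10737). The kinase Plk2 (1.74, 0.00022) and the antiproliferative gene Btg2 (1.87, 0.0015) also rose. Tp53inp1, a p53-induced nuclear protein, measured 1390.4, 1437 and 1005 in RM-HS and 4851, 4101, 2256, 3180 and 3324 in HS and fell (log2 difference -1.44 ± 0.29 SE, adjusted p = 0.0022).

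Gdf15 (chromosome 16, 20555395 to 20557978, rn6), a circulating stress cytokine of the transforming growth factor family, measured 14602, 16862 and 7025 in RM-HS and 1548, 1226, 1239, 1164 and 1249 in HS. The HS libraries lay close together and RM-HS 3 was the lowest of the RM-HS libraries (log2 difference 3.23 ± 0.36 SE, adjusted p = 1.9e-05, and 0.0028 among libraries named R). It is 1 of 24 tubular injury markers tested, of which 3 rose and 1 fell against a background of 10% and 10.6%. The other risers were Cdkn1a (1.07), the p21 cell cycle inhibitor, which lost its call without HS 1 (adjusted p = 0.057), without HS 2 (adjusted p = 0.06), without HS 4 (adjusted p = 0.057), without RM-HS 1 (adjusted p = 0.095) and without RM-HS 2 (adjusted p = 0.14), and Krt18 (0.88), a keratin, which lost its call without HS 1 (adjusted p = 0.059), without HS 2 (adjusted p = 0.059), without HS 4 (adjusted p = 0.076), without HS 5 (adjusted p = 0.063), without RM-HS 2 (adjusted p = 0.12) and without RM-HS 3 (adjusted p = 0.12). The number that rose was 1 without each of HS 1, HS 2, RM-HS 2 and HS 4, and 1 (Gdf15) rose among libraries named R.

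The most used injury markers did not separate the groups. Havcr1, which encodes KIM-1 of injured proximal tubules, measured 10917, 7741 and 5765 in RM-HS and 7146, 16975, 29197, 14747 and 4719.9 in HS. The RM-HS values lay inside the HS range (log2 difference -0.61, adjusted p = 0.6). Lcn2, which encodes NGAL, measured 27623, 24949 and 8768 in RM-HS and 270.0, 7532, 11687, 14565 and 4180.4 in HS. RM-HS 1 and 2 were above every HS library, RM-HS 3 was inside the range, and HS 1 was far below the others (2.09, 0.4). Clu (-0.04, 0.95), the chaperone clusterin, and Spp1 (0.32, 0.68), osteopontin, overlapped as well. The same held for the kidney repair factor Sox9 (0.48, 0.23), the adhesion molecule Vcam1 (0.27, 0.71) and the fibrinogen chain Fgb (-0.28, 0.84). A p that misses the threshold does not show that these levels were alike.

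**Figure D2:**
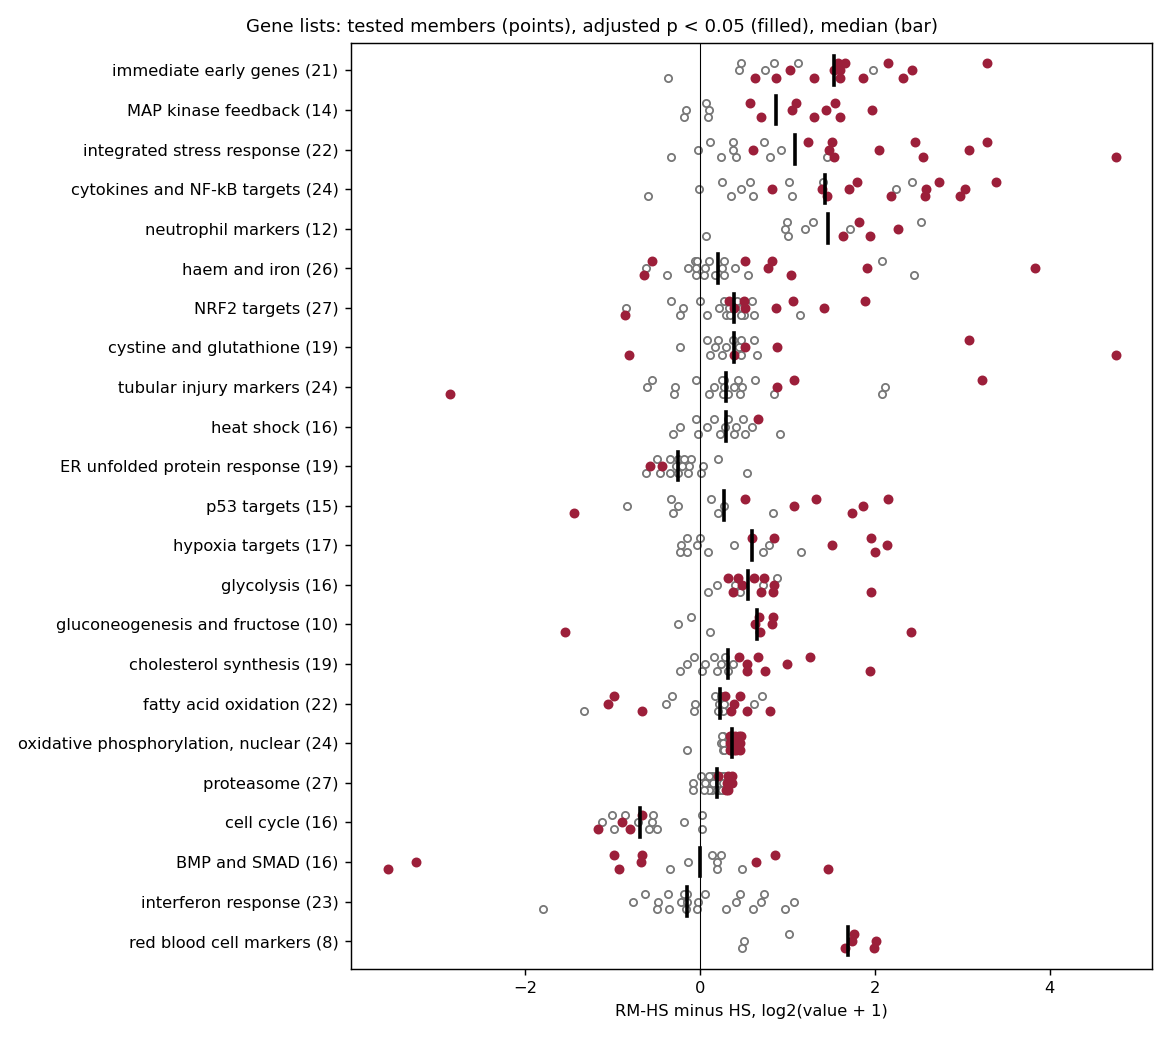
Log2 difference of RM-HS minus HS for each tested member of 23 gene lists (number tested in brackets), filled where the adjusted p was under 0.05, with the median of each list as a bar. Immediate early genes (14 of 21) and the integrated stress response (11 of 22) held many filled points to the right, and interferon response genes held none.

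Cytokines and targets of NF-kB were higher in 12 of 24 tested genes and lower in 0, with a median of 1.43; 6 passed among libraries named R and 7 without RM-HS 1. Nfkbia, the inhibitor that NF-kB itself induces, measured 5213, 5110.1 and 5360.2 in RM-HS and 1726, 1856, 2325, 2099.7 and 1633 in HS (log2 difference 1.45 ± 0.16 SE, adjusted p = 1.9e-05). Cxcl10, a T cell chemokine, measured 14657, 17910 and 13793 in RM-HS and 2722, 2134, 2765, 2867 and 1426 in HS (log2 difference 2.73 ± 0.47 SE, adjusted p = 0.00064). All RM-HS libraries were above all HS libraries for both, and Socs3, a feedback inhibitor of cytokine receptors (2.58, 0.0013), and the apoptosis inhibitor Birc3 (1.79, 0.0018) passed as well. Adjusted p among libraries named R were 0.00091, 0.0035, 0.025 and 0.023. Csf3, the growth factor of neutrophils, measured 119, 199 and 174 in RM-HS and 1.66, 7.94, 32.5, 0.979 and 1.6 in HS, and HS 3 stood above the other HS libraries (log2 difference 4.93 ± 1.01 SE, adjusted p = 0.0023, and 0.018 among libraries named R). Cxcl2, a neutrophil chemokine, measured 736, 798 and 729.7 in RM-HS and 77.3, 82.8, 485, 44.1 and 12.8 in HS. HS 3 was again the highest HS library (log2 difference 3.38 ± 1.02 SE, adjusted p = 0.024, and 0.18 among libraries named R), and the call ended without HS 4 (adjusted p = 0.05), without HS 5 (adjusted p = 0.059), without RM-HS 1 (adjusted p = 0.063), without RM-HS 2 (adjusted p = 0.065) and without RM-HS 3 (adjusted p = 0.067). It was also lost in edgeR (2.37, adjusted p = 0.072), in DESeq2 (2.42, 0.058) and with the name letter as covariate (2.74, 0.084). The list of interferon response genes, which does not hold Cxcl10, had 0 of 23 tested members called in limma. In that list 1 was at an unadjusted p under 0.05, 0 passed in edgeR and 1 in DESeq2, with log2 differences from -1.80 to 1.07.

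Markers of neutrophils moved in the same direction. Of 12 tested, 4 were higher and 0 lower, with a median log2 difference of 1.46, and 1 passed among libraries named R. The count was 2 higher without HS 2, 8 higher without HS 3, 1 higher without RM-HS 1 and 0 higher without RM-HS 3. Their summed level was 8532 to 13978 in RM-HS and 2453 to 9117 in HS, with no member at 0 in all 8 libraries. The receptor Trem1 measured 101, 52.4 and 94.1 in RM-HS and 15.8, 17, 43.3, 26.4 and 9.61 in HS (log2 difference 1.95 ± 0.51 SE, adjusted p = 0.012), with HS 3 the highest of its group. Trem1 lost its call without RM-HS 1 (adjusted p = 0.053) and without RM-HS 3 (adjusted p = 0.052). Camp, the antimicrobial cathelicidin of neutrophil granules, measured 197, 161 and 239 in RM-HS and 21.6, 31.7, 45.1, 11.8 and 3.2 in HS, with no overlap (log2 difference 3.46 ± 0.80 SE, adjusted p = 0.0051, and 0.045 among libraries named R). The part of neutrophils in the cytokine counts was not tested. Macrophage markers summed to 53096 to 60341 in RM-HS and 32642 to 52984 in HS, with 2 of 14 tested genes higher, 0 among libraries named R and 1 without any 1 of the 8 RM-HS and HS libraries, without Sham 1 or 5, without RM 2 or 6, with TMM or upper quartile scaling and in edgeR. T and NK cell markers had 0 of 11 called in limma (1 at an unadjusted p under 0.05, 0 in edgeR and 1 in DESeq2).

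Transcripts of red blood cells passed in the pooled comparison and not among libraries named R. Of 8 tested markers 5 were higher and 0 lower (median 1.70), and 0 passed among libraries named R. The count was 2 higher without HS 1, 2 higher without HS 2, 0 higher without RM-HS 2, 0 higher without RM-HS 3 and 3 higher without HS 5. Their summed level was 389280 to 1118900 in RM-HS and 89798 to 485740 in HS, with no member at 0 in all 8. Hba-a1, a haemoglobin alpha chain, measured 153880, 442630 and 437830 in RM-HS and 34641, 63030, 191730, 130400 and 53000 in HS. RM-HS 1 lay inside the HS range (log2 difference 1.99 ± 0.58 SE, adjusted p = 0.02), and the call ended without RM-HS 2 (adjusted p = 0.084) and without RM-HS 3 (adjusted p = 0.092). Hba-a1 and Hba-a2 are near-identical copies, so the split of reads between them is uncertain. The part of blood in the haem and iron counts was not tested. Skeletal muscle markers had 0 of 9 tested genes called in limma, edgeR or DESeq2, and 2 at an unadjusted p under 0.05.

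**Figure D3:**
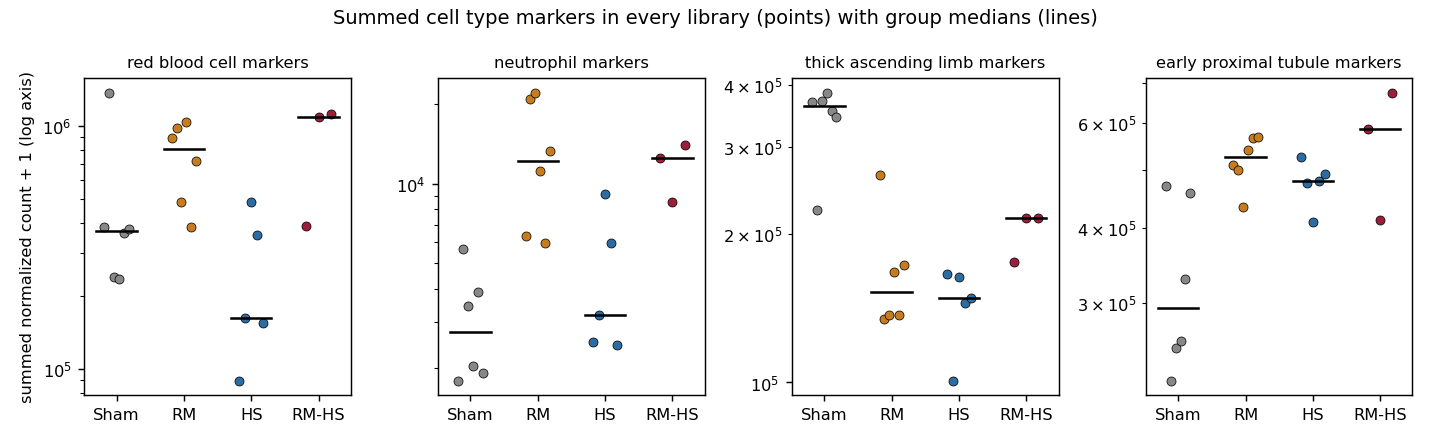
Summed normalized counts of 4 marker lists in each library (points) on a log axis, with group medians as lines. Red blood cell and neutrophil sums were highest in RM-HS libraries when set beside HS, with overlap between the groups.

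Glycolysis had 10 of 16 tested genes higher and 0 lower (median 0.55, 6 among libraries named R). Hk2, the inducible hexokinase, measured 779, 740.1 and 1153 in RM-HS and 188, 163, 457, 282 and 142 in HS (log2 difference 1.96 ± 0.33 SE, adjusted p = 0.00052). Gpi, glucose-6-phosphate isomerase, measured 11742, 14485 and 12137 in RM-HS and 8841, 8188, 7279, 6861 and 8226 in HS (log2 difference 0.70 ± 0.10 SE, adjusted p = 0.00013). No HS library reached the lowest RM-HS library in either, and enolase Eno1 (0.74, 0.00013) and Gapdh (0.62, 0.0011) rose by less than 1 on the log2 scale. Of 17 hypoxia targets, which share Hk2, 6 were higher and 0 lower (median 0.60, 5 among libraries named R). Pfkfb3, an activator of glycolysis, measured 5118, 4084 and 3747 in RM-HS and 988, 1212, 1139, 1168 and 874 in HS (log2 difference 2.00 ± 0.22 SE, adjusted p = 1.9e-05). Adm, the vasodilator adrenomedullin, measured 1531, 1530.4 and 821 in RM-HS and 263, 254, 303, 334 and 266 in HS (log2 difference 2.13 ± 0.26 SE, adjusted p = 3.4e-05). For both, every RM-HS value was above every HS value, and Vegfa rose by 0.60 (0.0034).

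Nuclear genes of oxidative phosphorylation were higher in 16 of 24 and lower in 0, by small amounts (median 0.36), with 3 passing among libraries named R. The cytochrome oxidase subunit Cox4i1 measured 33614, 42648 and 37950 in RM-HS and 28117, 26583, 29739, 26336 and 25819 in HS (log2 difference 0.47 ± 0.10 SE, adjusted p = 0.0027). The groups were apart although the change was well under 2-fold, as for the succinate dehydrogenase subunits Sdhb (0.40, 0.0029) and Sdhc (0.46, 0.0045). In RM against Sham, 1 of the 24 was higher and 4 lower, against 26.2% and 26.8% of all rows, and the departure from additivity was positive for 15, against 14.9% of all rows. The departure contains the RM-HS minus HS difference, so the 15 are not a separate result from the 16. In HS against Sham, which shares the HS libraries, 0 were higher and 14 lower, against 23.3% and 23.2% of all rows.

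Fructose and glucose handling changed on both sides. Slc2a5, the fructose transporter, measured 7706, 9780.3 and 3526 in RM-HS and 1381, 1338, 1019, 999.9 and 1349.7 in HS (log2 difference 2.41 ± 0.24 SE, adjusted p = 8.5e-06). All RM-HS values were above the HS values and below the RM range of 18042 to 30384. Ketohexokinase Khk (0.84, 0.00041) rose too. G6pc1, the glucose-releasing phosphatase of gluconeogenesis, measured 38725, 61366 and 36224 in RM-HS and 148760, 143270, 66387, 159510 and 154740 in HS and fell (log2 difference -1.54 ± 0.39 SE, adjusted p = 0.0091, and 0.1 among libraries named R). HS 3 was far below the other HS libraries and nearest to RM-HS. In all, 6 of 10 tested genes rose and 1 fell, and 3 rose among libraries named R. Of 19 cholesterol synthesis genes 8 rose and 0 fell (median 0.32, 4 among libraries named R). That count was 5 higher without RM-HS 1, 4 higher without RM-HS 2 and 5 higher without HS 4. Insig1, the sterol-sensing anchor of the synthesis regulator, measured 5038, 5459 and 3996 in RM-HS and 1869.5, 2294, 1873, 2138 and 1875 in HS (log2 difference 1.26 ± 0.14 SE, adjusted p = 1.9e-05). It was higher in every RM-HS library. Fatty acid oxidation genes went both ways, with 6 of 22 higher and 3 lower, 2 and 1 among libraries named R, and counts of 3 higher without RM-HS 1, 1 lower without RM-HS 2, 2 higher without RM-HS 3 and 2 higher without HS 4. The peroxisomal thiolase Acaa1a rose (0.80, 0.003), and the carnitine palmitoyltransferase Cpt2 fell (-0.99, 0.00086).

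**Figure D4:**
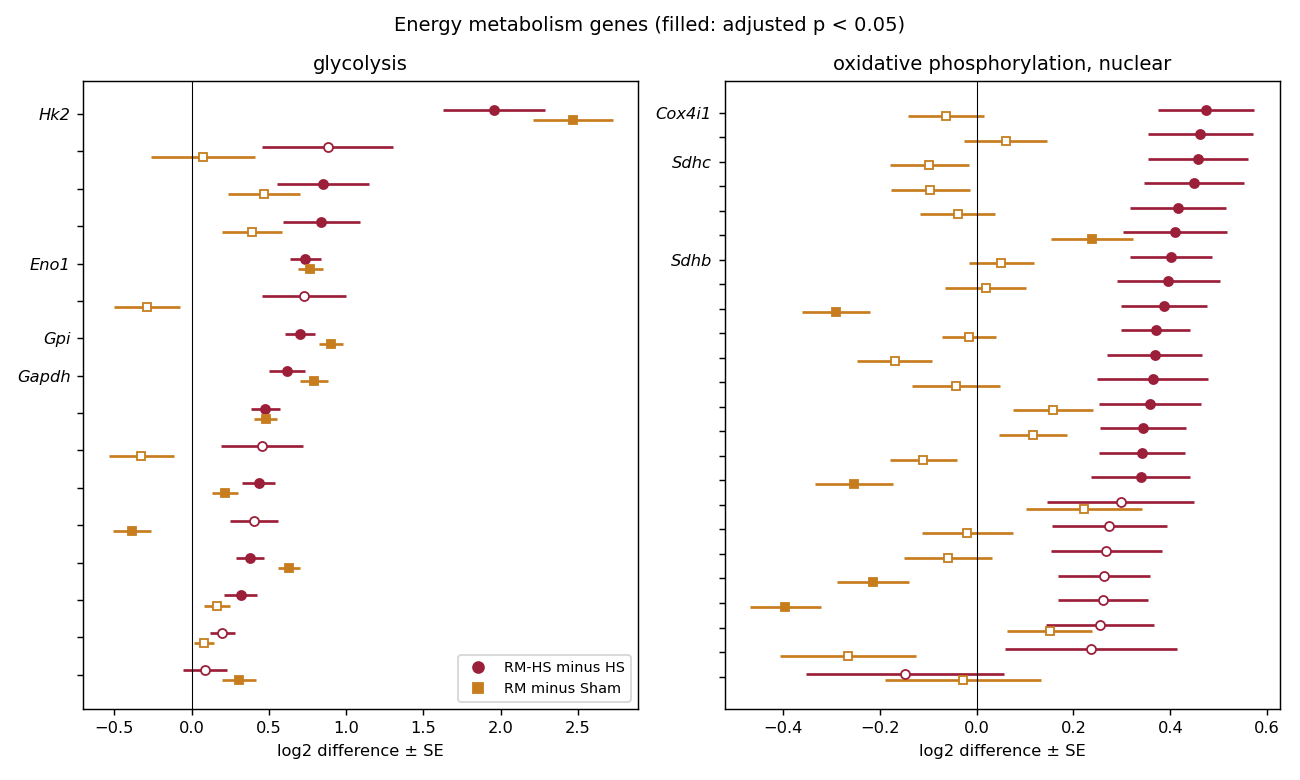
Log2 differences with SE of RM-HS minus HS (circles) and RM minus Sham (squares), 1 gene per line, for the tested glycolysis and nuclear oxidative phosphorylation genes, filled where the adjusted p was under 0.05. Glycolysis genes were filled in both contrasts for several members, and oxidative phosphorylation genes were filled on the right for RM-HS minus HS in 16 of 24.

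Secreted antagonists of BMP signalling were among the genes that fell. Grem1 (chromosome 3, 105203309 to 105214989, rn6), gremlin 1, measured 354, 289.8 and 143 in RM-HS and 2203, 2576, 1577, 2216 and 3509.5 in HS. Its HS values were within the Sham range of 1294 to 6544, and its RM-HS values were within the RM range of 52.0 to 1357 (log2 difference -3.25 ± 0.71 SE, adjusted p = 0.0037, and 0.0031 among libraries named R). Sostdc1, a kidney antagonist of BMP and Wnt, measured 245, 596 and 466 in RM-HS and 3694, 2429.7, 1779.6, 2080.2 and 3212 in HS. RM-HS was below HS in every library (log2 difference -2.64 ± 0.39 SE, adjusted p = 0.00021, and 0.0014 among libraries named R). Of 16 BMP and SMAD genes 3 rose and 6 fell (2 and 3 among libraries named R), against 10% and 10.6% of all rows. Counts were 3 lower without HS 2, 1 higher and 3 lower without RM-HS 1, 3 lower without RM-HS 2, 3 lower without RM-HS 3 and 3 lower without HS 5. Bambi, a decoy receptor, measured 11019, 13034 and 8879 in RM-HS and 3218, 3753, 4115, 4806 and 3913 in HS and rose (log2 difference 1.47 ± 0.19 SE, adjusted p = 7.7e-05), and the BMP receptor Bmpr1a fell (-0.68, 0.0016). Smad1, a transducer of BMP signals, rose (0.64, 0.008) and lost its call without RM-HS 1 (adjusted p = 0.063).

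The largest falls included the receptor genes Avpr2 and Adra2b, and Il22ra1, which is described further below. Avpr2, the vasopressin receptor of the collecting duct, measured 17.4, 44.2 and 25.7 in RM-HS and 134, 196, 142, 161 and 197 in HS (log2 difference -2.55 ± 0.53 SE, adjusted p = 0.0025, and 0.0071 among libraries named R). Adra2b, the alpha-2B adrenoceptor, measured 372, 334 and 775 in RM-HS and 2958, 2771, 2111, 2425 and 2944 in HS (log2 difference -2.51 ± 0.36 SE, adjusted p = 0.00016, and 0.00087 among libraries named R). The highest RM-HS library was below the lowest HS library for each, which the rule for naming the largest falls required. Principal cell markers, of which Avpr2 is 1, summed to 19906 to 29538 in RM-HS and 27363 to 39397 in HS, with 2 of 11 tested genes lower and 0 higher. Their part in the Avpr2 result was not tested. Of the other nephron lists, 1 of 12 early and 0 of 10 late proximal tubule markers, 2 of 12 thick ascending limb markers and 3 of 11 intercalated cell markers were higher, with 0 lower in any of the 4, and 1 of 6 distal convoluted tubule markers was lower. Over all rows 10% were higher and 10.6% lower. Fitted with only the RM-HS and HS libraries, 4 early proximal tubule markers were higher and 1 thick ascending limb marker was lower. In that fit 1 principal cell marker was higher and 3 were lower, and 2 distal convoluted tubule markers were lower. Intercalated cell markers had 1 higher without RM-HS 1, without RM-HS 3 and among libraries named R, where principal cell markers had 1 lower. The thick ascending limb sum was 175390 to 215660 in RM-HS and 100910 to 166140 in HS, with no overlap.

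Other large falls were in Cdh3, Traip and Fignl1. Cdh3, which encodes P-cadherin, measured 20.7, 14 and 4.28 in RM-HS and 69, 99.8, 128, 87.2 and 88.1 in HS (log2 difference -2.97 ± 0.41 SE, adjusted p = 0.00013). Traip, a ubiquitin ligase of the replication machinery, measured 6.53, 6.98 and 12.8 in RM-HS and 54.8, 57.8, 97.4, 76.4 and 52.8 in HS (log2 difference -2.83 ± 0.55 SE, adjusted p = 0.0016), and Fignl1, an ATPase of DNA repair, measured 19.6, 17.5 and 17.1 in RM-HS and 99.7, 81.6, 162, 120.5 and 110.5 in HS (log2 difference -2.57 ± 0.37 SE, adjusted p = 0.00015). All 3 were lower in every RM-HS library and passed among libraries named R (0.0036, 0.011 and 0.0035). Of 16 cell cycle genes tested 4 were lower and 0 higher (median -0.68), 2 among libraries named R, with counts of 2 lower without HS 2, 2 lower without RM-HS 1 and 2 lower without RM-HS 3. The replication licensing factor Mcm2 measured 542, 647 and 679.8 in RM-HS and 1316, 1034, 998, 1049 and 1049 in HS (log2 difference -0.80 ± 0.11 SE, adjusted p = 0.00014). Its HS 1 value stood above the other HS libraries, and Mcm6 (-0.89, 0.012) lost its call without RM-HS 3 (adjusted p = 0.085). Colq, the collagen tail of acetylcholinesterase, measured 0, 6.98 and 8.55 in RM-HS and 102, 20.4, 37.9, 8.81 and 231 in HS. HS 4 was close to RM-HS 3 (log2 difference -3.42 ± 1.10 SE, adjusted p = 0.033, and 0.076 among libraries named R), and the call ended without HS 1 (adjusted p = 0.066), without HS 5 (adjusted p = 0.08) and without RM-HS 1 (adjusted p = 0.19).

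Other genes that fell had passed as higher in HS against Sham. Because HS against Sham shares the HS libraries with the comparison, the values are set side by side only. Krt20 (chromosome 10, 87342502 to 87351063, rn6), a keratin of injured tubules, measured 123, 69.8 and 25.7 in RM-HS and 1050.2, 417, 358, 410.4 and 275 in HS, with 0 to 5.07 in RM (median 1.48) and 0 to 19.8 in Sham (median 6.69). RM-HS lay between HS and the other groups (log2 difference -2.86 ± 0.81 SE, adjusted p = 0.017, and 0.076 among libraries named R), and the call ended without RM-HS 3 (adjusted p = 0.11). Il22ra1, a subunit of the interleukin-22 receptor of epithelia, measured 39.2, 25.6 and 22.8 in RM-HS and 234, 252, 200.2, 137 and 195 in HS, with 15.5 to 61.4 in RM (median 24.4) and 24 to 49.4 in Sham (median 32.4). The RM-HS values were at the level of RM and Sham (log2 difference -2.77 ± 0.36 SE, adjusted p = 7.2e-05, and 0.0009 among libraries named R). Serpinb5, the serpin maspin, measured 17.4, 27.9 and 14.3 in RM-HS and 156, 95.2, 328, 112 and 67.2 in HS, with 5.07 to 26.3 in RM (median 11.8) and 3.43 to 65.9 in Sham (median 29.9) (log2 difference -2.70 ± 0.73 SE, adjusted p = 0.014, and 0.056 among libraries named R). All 5 HS libraries were above the RM-HS libraries, and the call ended without RM-HS 3 (adjusted p = 0.061). Cldn22, a claudin of tight junctions, measured 14.2, 16.3 and 4.28 in RM-HS and 95.5, 52.2, 24.4, 57.8 and 102 in HS, with 0 to 11.1 in RM (median 3.11) and 1.08 to 18.8 in Sham (median 10.4) (log2 difference -2.43 ± 0.77 SE, adjusted p = 0.03, and 0.12 among libraries named R). HS 3 was the lowest HS library, and the call ended without HS 1 (adjusted p = 0.059), without HS 4 (adjusted p = 0.051), without HS 5 (adjusted p = 0.065), without RM-HS 1 (adjusted p = 0.053) and without RM-HS 3 (adjusted p = 0.16). In HS against Sham the log2 differences were 6.43 (adjusted p = 7.2e-07) for Krt20, 2.54 (2.6e-06) for Il22ra1, 2.50 (0.0023) for Serpinb5, 2.65 (0.0021) for Cldn22, 2.74 (2.6e-06) for G6pc1 and 2.57 (2.6e-07) for Tp53inp1.

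Other large rises had mixed patterns across the series. Kif5c, a kinesin motor best known from neurons, measured 559, 365 and 366 in RM-HS and 11.6, 7.94, 2.71, 8.81 and 4.8 in HS, with 12.7 to 788 in RM (median 21.9) and 2.35 to 614 in Sham (median 227). It was high in all 3 RM-HS libraries and low in all 5 HS libraries, while Sham and RM each held both high and low libraries (log2 difference 5.81 ± 1.66 SE, adjusted p = 0.018, and 0.069 among libraries named R), and the call ended without RM-HS 1 (adjusted p = 0.061) and without RM-HS 3 (adjusted p = 0.053). Lhx6, a LIM homeobox transcription factor, measured 168, 349 and 25.7 in RM-HS and 13.3, 15.9, 7.22, 1.96 and 9.61 in HS, with 4.44 to 217 in RM (median 120.2) and 0 to 4.56 in Sham (median 3.43). RM-HS 3 was near the HS range (log2 difference 3.68 ± 1.03 SE, adjusted p = 0.016, and 0.046 among libraries named R), and the call ended without RM-HS 1 (adjusted p = 0.063) and without RM-HS 2 (adjusted p = 0.096). Aknad1 measured 482, 178 and 39.9 in RM-HS and 20.8, 19.3, 20.7, 8.81 and 8.01 in HS, with RM-HS 3 again the lowest (log2 difference 3.31 ± 0.58 SE, adjusted p = 0.00076, and 0.027 among libraries named R). Slpil2 measured 673, 513 and 338 in RM-HS and 0, 211, 235, 99.9 and 28.8 in HS. The HS values ran from 0 upward (log2 difference 3.50 ± 1.21 SE, adjusted p = 0.045, and 0.17 among libraries named R), and the call ended without HS 1 (adjusted p = 0.05), without HS 5 (adjusted p = 0.079), without RM-HS 1 (adjusted p = 0.13), without RM-HS 2 (adjusted p = 0.1) and without RM-HS 3 (adjusted p = 0.086). It was also lost in edgeR (2.11, adjusted p = 0.058) and in DESeq2 (2.15, 0.075).

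The same injury without HS, RM against Sham, changed 8455 rows (53%), 4178 higher and 4277 lower, in libraries that the comparison of RM-HS with HS does not use. With upper quartile scaling, which moved the median log2 difference over all rows from -0.04 to -0.18, the split was 3249 higher and 5529 lower. Only 1 of 6 RM libraries is named R, against 6 of 6 Sham, so here the name letter can hardly be told apart from the injury. With the name letter as covariate 4551 rows passed. Of the 3287 rows called in RM-HS against HS, 1506 (45.8%, or 17.8% of the RM against Sham calls) were called in the same direction there, 548 in the opposite direction and 1233 not at all. Gdf15 differed by 4.10 in RM against Sham and 3.23 in RM-HS against HS, Gadd45a by 2.08 and 2.15, Grem1 by -3.38 and -3.25, and Adra2b by -2.86 and -2.51. For these 4 the departure from additivity, which is the difference between the 2 differences, did not pass (adjusted p = 0.15, 0.84, 0.93 and 0.61). This does not show equal changes.

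A departure from additivity passed in 5054 rows (31.7%), 2376 positive and 2678 negative. With upper quartile scaling, which moved the median departure from 0.02 to 0.15, the split was 3154 and 2080. Among libraries named R, which hold a single RM library (RM 1), 0 passed in limma and 2079 had an unadjusted p under 0.05, with the name letter as covariate 617 passed, and with Sham 1 and Sham 6 as the only Sham libraries 3151. Of the 3287 called rows, 1513 (46.03%) also had a called departure. The departure contains the difference by which these rows were called, from the same libraries, so a share above 31.7% is no separate result.

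Several leading genes rose by less with HS present than without. Atf3 differed by 6.24 in RM against Sham and 3.29 in RM-HS against HS (departure -2.95 ± 0.50 SE, adjusted p = 0.0003). Slc7a11 differed by 8.26 and 4.76 (departure -3.51 ± 0.99 SE, adjusted p = 0.011), and Srxn1 by 5.51 and 1.89 (departure -3.62 ± 0.45 SE, adjusted p = 3.2e-05). With the name letter as covariate the departure of Slc7a11 was lost (-2.97, adjusted p = 0.22). Atf3 reached 11091 to 17902 in RM-HS and 10315 to 27731 in RM, from 799 to 2680 in HS and 115 to 363 in Sham. Hmox1 differed by 7.64 and 3.83 (departure -3.81 ± 1.16 SE, adjusted p = 0.017). That call ended without RM-HS 3 (-3.26, adjusted p = 0.066) and with Sham 1 and Sham 6 as the only Sham libraries (-2.21, adjusted p = 0.25). It was also lost in edgeR (-2.84, adjusted p = 0.14), in DESeq2 (-2.79, adjusted p = 0.15) and with the name letter as covariate (-4.26, adjusted p = 0.14). Sham 6 alone had a Hmox1 value of 12908, against 400.1 to 499.7 in the other Sham libraries. With libraries named R alone the departures were -2.59, adjusted p = 0.15 for Atf3, -1.37, adjusted p = 0.65 for Slc7a11, -3.36, adjusted p = 0.13 for Srxn1 and -3.72, adjusted p = 0.46 for Hmox1. Of the 27 NRF2 targets, 13 departed downward and 1 upward, and of the 19 cholesterol synthesis genes, 12 downward and 0 upward, against 16.8% and 14.9% of all rows.

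For another set the RM difference was larger without HS than with it, and in most of these genes only the first passed. Havcr1 differed by 5.01 in RM against Sham (adjusted p = 8.4e-07) and -0.61 in RM-HS against HS (0.6), with a departure of -5.62 ± 0.94 SE, adjusted p = 0.00027. Its values were 923 to 9645 in RM (median 6071) and 39.4 to 249 in Sham (median 152), and HS alone held 4720 to 29197. Clu behaved likewise (1.64 and -0.04, departure -1.69 ± 0.42 SE, adjusted p = 0.005), and so did the fibrinogen chain Fgb (5.40 and -0.28, departure -5.68 ± 1.03 SE, adjusted p = 0.0005) and Csrp3, a LIM protein of striated muscle (6.17 and 0.01, departure -6.16 ± 1.27 SE, adjusted p = 0.0013). Lypd8 differed by 7.69 and 1.77 (departure -5.92 ± 1.18 SE, adjusted p = 0.001). With the name letter as covariate the departure was lost in Clu (-1.13, adjusted p = 0.25), Fgb (-4.54, 0.07), Csrp3 (-5.49, 0.081) and Lypd8 (-5.88, 0.052). Lexm differed by 7.60 and 1.91 (departure -5.70 ± 0.74 SE, adjusted p = 5.1e-05), and its difference with HS present also passed (adjusted p = 0.026, a call that ended without HS 1 (adjusted p = 0.058), without HS 5 (adjusted p = 0.051), without RM-HS 1 (adjusted p = 0.08) and without RM-HS 2 (adjusted p = 0.17)). Slc5a2, which encodes the glucose carrier SGLT2, measured 15915, 14297 and 19919 in RM-HS and 9926, 9389, 9717, 10485 and 12030 in HS, with no overlap (log2 difference 0.69 ± 1.22 SE, adjusted p = 0.73). Fitted with only the RM-HS and HS libraries, without the split Sham group, the same difference passed (adjusted p = 0.0089). It had a departure of -4.16 ± 1.56 SE, adjusted p = 0.047, and in edgeR -1.71, adjusted p = 0.38 and in DESeq2 -1.68, adjusted p = 0.38. With Sham 1 and Sham 6 as the only Sham libraries it was -0.14, adjusted p = 0.73. Its Sham values ran from 43.1 to 7863, and its call ended without any 1 of 18 libraries, all except Sham 1 and Sham 6 (adjusted p from 0.0503 to 0.0931).

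In G6pc1, Tp53inp1 and Btc the 2 differences had opposite signs. G6pc1 rose by 2.49 in RM against Sham and fell in RM-HS against HS (departure -4.03 ± 0.50 SE, adjusted p = 3.1e-05), as did Tp53inp1 (0.98 and -1.44, departure -2.42 ± 0.37 SE, adjusted p = 0.00015). Il22ra1 differed by -0.27 (adjusted p = 0.44) and -2.77 (departure -2.50 ± 0.46 SE, adjusted p = 0.00055), and Btc by 0.52 (0.14) and -1.77 (departure -2.29 ± 0.46 SE, adjusted p = 0.0011). The departure of Btc was lost with the name letter as covariate (-1.94, adjusted p = 0.087). Dusp15, a phosphatase, was at 0 in RM-HS 2 and 3 and at 324 in RM-HS 1, and its departure of -6.57 ± 2.15 SE, adjusted p = 0.025 ended without RM-HS 2 (-5.18, adjusted p = 0.099) or RM-HS 3 (-5.18, adjusted p = 0.1). In edgeR it was -0.84, adjusted p = 0.74, and in DESeq2 -0.86, adjusted p = 0.79. With Sham 1 and Sham 6 as the only Sham libraries the departure of Dusp15 was -3.15, adjusted p = 0.28.

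The 5 largest positive departures were in genes of low level in HS, with group means from 2.67 to 37.3. Kif5c was not low in the other groups, with means of 430 in RM-HS, 273 in RM and 259 in Sham. Gjd2, a gap junction protein, measured 73, 25.6 and 18.5 in RM-HS and 10.8, 20.4, 0, 1.96 and 0 in HS, with 0 to 33.9 in RM (median 3.17) and 13.7 to 156 in Sham (median 49.7). It fell from Sham to RM (-3.64, adjusted p = 0.0037) and from Sham to HS (-3.68, 0.0057). RM-HS minus HS was 3.17 (adjusted p = 0.072), and the departure was 6.81 ± 1.56 SE (adjusted p = 0.0028). Lrtm2 (6.08 ± 1.21 SE, adjusted p = 0.00096) and Camkv (4.81 ± 1.10 SE, adjusted p = 0.0026) departed upward too, with medians of 55.7 and 131 in Sham and 3.18 and 27.6 in RM. Both also fell from Sham to HS (-4.45 and -3.93). RM-HS minus HS was 2.21 for Lrtm2 (adjusted p = 0.1) and 2.52 for Camkv (0.043). That call of Camkv ended without HS 2, 4 or 5 and without any RM-HS library. With the name letter as covariate the departures were lost in Gjd2 (3.52, adjusted p = 0.29), Lrtm2 (3.46, 0.17) and Camkv (4.19, 0.12). Kif5c departed by 5.73 ± 2.12 SE, adjusted p = 0.045, a call that ended without any 1 of 15 libraries, all except Sham 2, 3 and 4 and RM 2 and 6 (adjusted p from 0.0502 to 0.0875), and whose Sham and RM values were split as described. Fxyd3, a regulator of the sodium pump, measured 13.1, 90.8 and 29.9 in RM-HS and 37.4, 81.6, 67.6, 0 and 0 in HS, with only RM 1 above 0 in RM. Its departure of 5.88 ± 2.05 SE, adjusted p = 0.034 took the opposite sign among libraries named R (-1.30, adjusted p = 0.8), and its call ended without any 1 of 12 libraries: Sham 2 to 4, RM 2 to 6, RM-HS 2 and 3, and HS 4 and 5 (adjusted p from 0.0504 to 0.0993). With Sham 1 and Sham 6 as the only Sham libraries the departure of Fxyd3 was 4.43, adjusted p = 0.22, in edgeR 3.13, adjusted p = 0.24 and in DESeq2 3.20, adjusted p = 0.39.

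**Figure D5:**
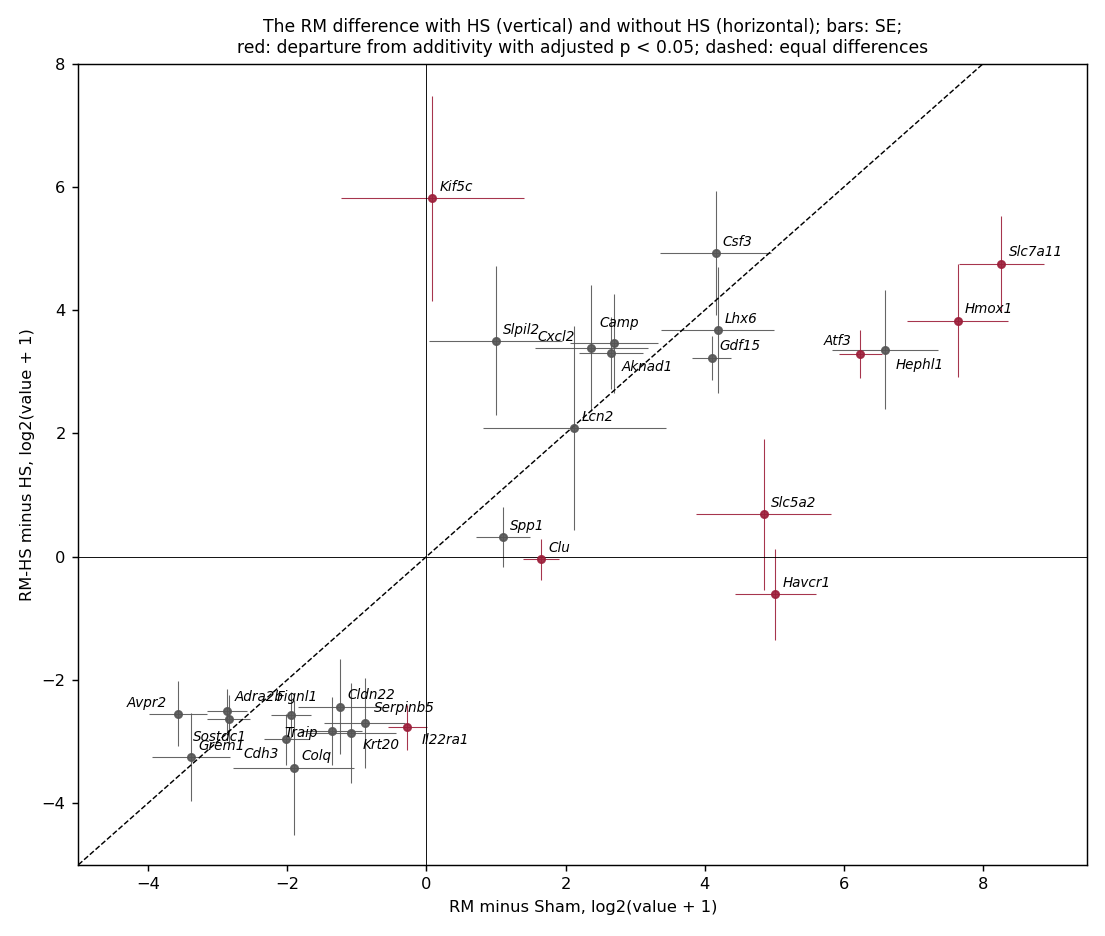
Log2 difference of RM-HS minus HS (vertical) against RM minus Sham (horizontal) with SE for the genes with the largest rises and falls and the 8 genes always named, red where the departure from additivity had an adjusted p under 0.05. Havcr1 and Clu lie right of the dashed line of equal differences near 0 on the vertical axis, Slc5a2 lies right of it at 0.69, and Grem1, Gdf15 and Csf3 lie near the line.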

How the data were processed

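The libraries are stranded, paired-end mRNA libraries of whole frozen rat kidneys, as the labels' protocols say. STAR, featureCounts of Subread 1.5.0 and DESeq2 were used with the rn6 build, per the submitters' processing notes. The settings, the annotation and the use of strand in counting are not given in the sources read for this work, so reads of overlapping or antisense genes may not be separated. The deposited signal values are read counts that the authors normalized with DESeq2. Dividing each library's values by their smallest step gave whole reads, which held for 100% of values to 0.1 read. Other reads than mitochondrial numbered 25.3 to 50.1 M in HS and 35.2 to 43.7 M in RM-HS.

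Groups are the disease labels, and replicates are numbered in the order listed. The series' design text gives 19 libraries with 5 RM, while the labels give 20 with 6 RM, and all were used. Of 34681 rows, 14588 were 0 in every library. A row was tested if 3 or more libraries had a value of 10 or more, which 15954 rows did, 12967 of them with a symbol. The test was limma 3.58.1 (R 4.3.3) on log2(value + 1) with the trend option, in 1 fit of 4 group means over 20 libraries, so a log2 difference understates the change of low genes. P-values were adjusted by the Benjamini-Hochberg method over all tested rows, and genes passed under 0.05. The departure from additivity was (RM-HS minus HS) minus (RM minus Sham). The procedure was run on simulated data for RM-HS against HS only. The simulation had a constant dispersion, no split Sham group and no effect of the name letter. It therefore cannot speak to unequal spread or to the departure from additivity.

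The members and the 52 gene lists were chosen with earlier results of these data known. Genes were named by a rule: the 12 largest rises and 12 largest falls that passed, did not overlap between groups, had a symbol and averaged 50 or more in the higher group, the 5 largest departures in each direction, 8 genes named in every case, and members of lists. Of lists with at least 1 in 4 tested members passing up to 4 were named, and any member of the haem and iron, NRF2, cystine and glutathione, and tubular injury lists. Lists are described by counts and medians. Alternatives were other pseudocounts (0.5 and 8), filters, scalings (TMM and upper quartile), array weights, the groups compared alone, the first letter of the library name, edgeR 4.0.16 and DESeq2 1.42.0 on the recovered reads, and each library left out. Some members of the lists are counted and not reported by name here. Trib3, and the genes named with the remaining lists, were chosen after their values were seen. Gene spans and promoter sequences are from RefSeq (GRCr8), matched by symbol. Coordinates of genes are those of the file.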

Additional observations from a re-analysis of the deposited data

Results flagged for a closer look

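In 20 of 288 groups of values examined, 1 library lay far from the others of its group by Dixon's test on log2(value + 1); chance gives this in about 1 in 20 groups. Among the HS libraries, Dusp1 was 5434 in HS 4 against 4203 to 4447, Slc4a1 was 1930.2 in HS 3 against 2784 to 3229 and Cd79b was 102 in HS 3 against 15.9 to 22.4. In the same group, Gdf15 was 1548 in HS 1 against 1164 to 1249, Mcm2 was 1316 in HS 1 against 998 to 1049 and Prdx1 was 9748 in HS 4 against 11763 to 11996. Likewise, Plin2 was 26052 in HS 5 against 18129 to 19580, Keap1 was 943 in HS 1 against 1092 to 1153 and Hmox1 was 36015 in HS 2 against 2468 to 4966. Also, G6pc1 was 66387 in HS 3 against 143270 to 159510. Among the RM libraries, Fxyd3 was 54 in RM 1 against 0, Slc7a11 was 651 in RM 1 against 4354 to 9529 and Lexm was 1053 in RM 1 against 2698 to 4423. In the same group, Hmox1 was 109350 in RM 1 against 157950 to 172380. Among the Sham libraries, Lypd8 was 5.16 in Sham 2 against 0 to 0.953, Cldn22 was 1.08 in Sham 5 against 8.57 to 18.8 and Lhx6 was 0 in Sham 3 against 2.35 to 4.56. In the same group, Hephl1 was 3.53 in Sham 4 against 0, Slpil2 was 10.3 in Sham 6 against 90.5 to 170.2 and Hmox1 was 12908 in Sham 6 against 400.1 to 499.7. 

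The difference between RM and its control itself differed between kidneys with and without HS in 22 of the genes examined for it. The test was that of the departure from additivity, which passed in 31.7% of all rows. Gjd2, Lrtm2, Fxyd3, Kif5c, Camkv, Dusp15, Csrp3, Lypd8, Lexm and Fgb were picked as the 5 largest passing departures in each direction. Their passing was thus a condition of the choice, and the 22 are a description only. The departure was positive on the log2 scale in Gjd2 (6.81), Lrtm2 (6.08), Fxyd3 (5.88), Kif5c (5.73) and Camkv (4.81). It was negative in Dusp15 (-6.57), Csrp3 (-6.16), Lypd8 (-5.92), Lexm (-5.70), Fgb (-5.68), Havcr1 (-5.62), Slc5a2 (-4.16), G6pc1 (-4.03), Hmox1 (-3.81), Srxn1 (-3.62), Slc7a11 (-3.51), Atf3 (-2.95), Il22ra1 (-2.50), Tp53inp1 (-2.42), Btc (-2.29), Bach1 (-2.18) and Clu (-1.69). With the name letter as covariate every positive call was lost. Among the negative ones, Dusp15, Csrp3, Lypd8, Fgb, Slc5a2, Hmox1, Slc7a11, Btc and Clu lost their calls. With libraries named R alone, 0 of these 22 passed in limma, as was true of all rows.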

How the results depend on the processing

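RM-HS against HS gave 3287 calls, and 2292 to 3784 under the other alternatives that kept all libraries (pseudocounts, filters, scalings, weights, tools, groups fitted and the name letter as covariate), of which 2196 to 3263 were the same rows in the same direction. It gave 1203 among libraries named R, and leaving out each library in turn 2015 to 3547, with the lowest without RM-HS 3. RM against Sham gave 8455 calls, 4551 with the name letter as covariate, 766 among libraries named R and 5250 with Sham 1 and Sham 6 as the only Sham libraries, and 7828 to 8537 with each library left out. The departure from additivity gave 5054, 617 with the name letter as covariate, 0 among libraries named R and 3151 with Sham 1 and Sham 6 only, and 3989 to 5518 with each library left out. Why these counts moved was not tested. Of 134 named genes called in RM-HS against HS, 64 were called under every alternative and 0 changed sign. Among libraries named R, 70 of the 134 were called, and with the name letter as covariate 108, the losses named in the text being Abcc4, Camkv, Cldn22, Colq, Cxcl2, Fth1, Hephl1, Hp, Krt18, Lhx6, Slc48a1, Slc7a9 and Slpil2. The departure of Fxyd3 took the opposite sign with the name letter as covariate (-1.35) and among libraries named R (-1.30), and the cause was not tested.

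No paired analysis was possible because the labels carry no replicate numbers that link libraries across groups. With 3 RM-HS libraries, all named R, and HS libraries of both letters, the name letter cannot be fully told apart from the group. The limit is stronger in RM against Sham, where 1 of 6 RM and 6 of 6 Sham libraries are named R. The departure from additivity contains that contrast. Differences in genes that vary between libraries were detectable only where large.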

Other observations

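Gene groups outside the main account changed in smaller numbers. The background for each count in this section is 10% of all rows higher and 10.6% lower. Proteasome subunits were higher in 7 of 27 tested genes and lower in 0 (median 0.19), with 0 passing among libraries named R and 12 higher without Sham 1, 4 higher without RM-HS 1, 2 higher without RM-HS 2 and 4 higher without HS 5. Psmd1, a regulatory subunit, measured 3800, 3996 and 3951 in RM-HS and 3286, 3231, 3111, 3082 and 2979.6 in HS (log2 difference 0.32 ± 0.08 SE, adjusted p = 0.0081). Polyamine genes were higher in 5 of 12 and lower in 1, with 2 higher among libraries named R, and 3 higher without HS 2, 3 higher without RM-HS 1, 2 higher without RM-HS 2, 3 higher without HS 4 and 2 higher without HS 5. The ornithine decarboxylase antizymes Oaz1 (0.58, 0.00068) and Oaz2 (0.49, 0.0019) passed, which limit polyamine synthesis. Of 19 vasoactive genes 4 rose and 0 fell, all 4 also among libraries named R. Bdkrb2, the bradykinin B2 receptor, measured 931, 1227 and 1036 in RM-HS and 149, 121, 269, 279 and 320.2 in HS, with no overlap (log2 difference 2.31 ± 0.35 SE, adjusted p = 0.00022), and Ednra, the endothelin A receptor, rose by 1.19 (0.0037).

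Of 15 circadian clock genes 3 rose and 0 fell, and 1 rose among libraries named R. Bhlhe40, a repressor in the clock, measured 11838, 8962 and 7125 in RM-HS and 2514, 2780, 5069, 3406 and 2382 in HS (log2 difference 1.55 ± 0.20 SE, adjusted p = 6.4e-05), and Ciart, another repressor, measured 216, 448 and 586 in RM-HS and 96.4, 82.8, 71.3, 61.7 and 36.8 in HS (log2 difference 2.51 ± 0.59 SE, adjusted p = 0.006). The labels give no time of day for any library. Protein uptake genes were higher in 3 of 9 and lower in 0, 1 among libraries named R and 1 without RM-HS 3. Pdzk1, a scaffold of proximal tubule transporters, measured 33182, 26180 and 35582 in RM-HS and 21337, 16045, 13691, 14653 and 19001 in HS, with no overlap (log2 difference 0.91 ± 0.17 SE, adjusted p = 0.0014). The uptake receptors Lrp2 (0.06, 0.91) and Cubn (-0.54, 0.19) did not pass. Endothelial markers were higher in 3 of 13 and lower in 1, with 0 passing among libraries named R and 1 higher without HS 2, 0 higher without RM-HS 1 and 1 higher without RM-HS 3. Autophagy and lysosome genes were higher in 4 of 22 and lower in 2, against 10% and 10.6% of all rows, with 0 passing among libraries named R. Counts were 2 higher without HS 2, 1 higher without RM-HS 1, 2 higher without RM-HS 2, 2 higher without RM-HS 3, 2 higher without HS 4 and 1 higher without HS 5.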
